A study of Homo sapiens with 9 samples.

Results

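The genes described here are 19 genes with a solute carrier (SLC) symbol whose mean level over the 9 arrays reached 4.28 on the log2 scale. They were selected from the 38 SLC symbols in the gene naming of array rows used here, among 14884 named genes in all. Each had 1 row in the table. The limit is the median level of the named genes, and it left 7442 genes for testing. The level itself was used for the choice and is therefore given only as a description. Just inside the limit lay SLC66A3 at 4.68, SLC51B at 4.61 and SLC49A3 at 4.53, and just outside it the antisense RNA SLC25A25-AS1 at 4.08, SLC67A2 at 4.03 and SLC60A1 at 3.88. Of the 19 genes, 18 encode proteins and 17 of these encode carriers or carrier-like membrane proteins. The other two are SLC2A4RG, a transcription regulator, and SLC9A3-OT1, a long non-coding RNA.

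The cells were THP-1, a line from a human monocytic leukaemia, made macrophage-like (M0) with the phorbol ester PMA, which all groups received before their total RNA was measured. The groups were osimertinib at 100 nM, a covalent inhibitor of the epidermal growth factor receptor, cisplatin at 0.5 µM, a platinum compound that crosslinks DNA, and vehicle. Each was given for 16 h to 3 cultures that the labels call biological replicates, and each culture had 1 Affymetrix Human Gene 2.0 ST array. All cultures are of 1 cell line and each drug was given at 1 dose and 1 time, so the values describe this line under these conditions.

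Solute carriers are membrane proteins that move sugars, amino acids, ions, vitamins, nucleotides and other small molecules across the plasma membrane and the membranes of lysosomes, mitochondria and the Golgi apparatus, either down a gradient or coupled to another ion. The largest structural class among them is the major facilitator superfamily, whose members alternate between an outward and an inward open form. In macrophages, carriers of the lysosomal membrane return the products of digested material to the cytosol. The naming used here covers few of the long-known carriers: of 398 protein-coding RefSeq genes whose symbol fits, 23 were named. It left 37519 of 53617 rows unnamed, and whether these rows measure other carriers was not tested. The shares over all tested genes below rest on the same naming. The 19 genes are mostly proteins that received an SLC number late and were earlier known by other names, such as MFSD14B for SLC71A2, TMEM104 for SLC38A12 and PQLC2 for SLC66A1. Carriers such as the glucose or cystine transporters are not analysed here.

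The sequences before the start sites of 4 genes that were called higher with both drugs are shown. These genes had a window among the RefSeq promoters (GRCh38.p14), where 15 of the 19 genes matched. Whether they are regulated together was not tested. Each line gives the 250 bases before the annotated start, 5′ to 3′, and capitals mark a match to one of 6 short motifs searched on both strands. The windows lie at chr17:74776249-74776498 for SLC38A12, chr3:122794819-122795068 for SLC49A4, chr1:100037845-100038094 for SLC71A1 and chr9:94374319-94374568 for SLC71A2, all on the plus strand.
SLC38A12: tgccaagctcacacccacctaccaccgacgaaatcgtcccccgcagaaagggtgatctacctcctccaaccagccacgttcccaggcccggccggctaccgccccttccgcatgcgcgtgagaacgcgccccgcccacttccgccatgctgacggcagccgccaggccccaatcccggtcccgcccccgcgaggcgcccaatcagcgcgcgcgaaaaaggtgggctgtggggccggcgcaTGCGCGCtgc
SLC49A4: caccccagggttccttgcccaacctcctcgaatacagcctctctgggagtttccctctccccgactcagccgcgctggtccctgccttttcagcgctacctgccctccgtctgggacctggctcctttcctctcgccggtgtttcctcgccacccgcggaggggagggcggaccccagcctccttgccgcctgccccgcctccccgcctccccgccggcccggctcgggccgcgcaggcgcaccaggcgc
SLC71A1: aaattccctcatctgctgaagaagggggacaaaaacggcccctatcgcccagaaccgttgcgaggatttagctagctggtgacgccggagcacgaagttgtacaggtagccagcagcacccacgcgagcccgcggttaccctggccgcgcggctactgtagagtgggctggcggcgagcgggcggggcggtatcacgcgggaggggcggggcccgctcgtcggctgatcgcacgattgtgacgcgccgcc
SLC71A2: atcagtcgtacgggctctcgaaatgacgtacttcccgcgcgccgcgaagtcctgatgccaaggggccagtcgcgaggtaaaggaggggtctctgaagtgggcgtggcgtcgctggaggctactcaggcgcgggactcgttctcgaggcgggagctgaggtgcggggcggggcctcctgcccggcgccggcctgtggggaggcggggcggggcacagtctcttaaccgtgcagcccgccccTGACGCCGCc
The motifs were TGACNNNGC, the core of the antioxidant response element, TGATGNAA, a C/EBP-ATF core, and CACGTG, the E-box. The others were TGCGCNC, a form of the metal response element core, TGANTCA, the AP-1 site, and GAANNTTC, a heat shock element core. Other forms of the metal response core were not searched. The E-box, AP-1 and heat shock letters read the same on both strands, and no motif holds another. SLC38A12 had a metal response core at -10 to -4 from the start and SLC71A2 an antioxidant core at -10 to -2, both on the plus strand, while the windows of SLC49A4 and SLC71A1 held no match. Over all 27305 windows the antioxidant core occurred in 11% and in 3 of the 15, the C/EBP-ATF core in 3.19% and in 1, the E-box in 6.49% and in 1, the metal response core in 16.9% and in 5, the AP-1 site in 6.6% and in 0, and the heat shock core in 5.85% and in 0. The 15 windows held 52.8% to 86.8% G and C, against a median of 58% over all windows. A match describes letters in a window and is not a site.

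The deposited values ran from 0.65 to 13.17, and the first principal component, with 57.7% of the variance, separated the 6 treated arrays (-12.25 to -7.70) from those of vehicle (19.57 to 21.17). Cisplatin replicate 1 at -15.49 and osimertinib replicate 1 at 11.2 were the extremes of the second. Of 12 macrophage and monocyte markers, 7 were named and 5 reached the limit, including CD68 (9.71), CSF1R (8.83) and CD14 (4.30), while LYZ (3.25) and CD163 (2.43) did not. Their summed level was 42.7 to 43.9 with osimertinib, 43.2 to 44.6 with cisplatin and 42.3 to 42.9 with vehicle. Of these 5, CD68 and CSF1R were called higher with each drug (osimertinib 0.30 and 0.29, cisplatin 0.51 and 0.50). CD14 (osimertinib 0.18, cisplatin 0.07), TYROBP (0.17 and 0.11) and SPI1 (-0.0 and 0.02) were not called. Among all tested genes, 16.9% were higher with osimertinib and 16.5% with cisplatin. The epithelial marker EPCAM (2.84) and the fibroblast marker DCN (1.55) lay below the limit, while the epithelial keratin KRT18 (7.49) was lower with each drug (osimertinib -0.30, cisplatin -0.35). The part of these markers in the results below was not tested. Values that are exactly equal on several arrays occur in 8 of the 19 genes (42.1%) and in 3423 of the 7442 (46%).

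Cisplatin against vehicle asked which of these genes differed between cultures given a DNA-crosslinking drug and cultures given vehicle. By limma, 7 of the 19 were higher (36.8%) and 1 was lower (5.26%), where 16.5% of all tested genes were higher and 14.5% lower. The 3 cisplatin and 3 vehicle arrays did not overlap for 10 genes (52.6%, against 42.3% of all tested genes). The median difference was 0.24 over the 19 and 0.03 over all tested genes on the log2 scale, with 13 of the 19 above 0 and 6 below. The median size of the difference was 0.30 over the 19 and 0.19 over all. When all rows were quantile normalized on top of the deposited values, an alternative chosen after seeing the data, 10 of the 19 were higher and 1 lower, but 26.4% of all tested genes were then higher and 13.1% lower, and the median difference of all was 0.106. In bulk RNA, fewer cells of a kind and less RNA per cell cannot be told apart.

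Osimertinib against vehicle asked the same of a kinase inhibitor. Again 7 of 19 were higher (36.8%, against 16.9% of all tested genes) and 0 were lower (against 13.7%), and of those 19, 0 had an unadjusted limma p under 0.05 in the lower direction. The arrays did not overlap for 9 genes (47.4%, against 44.1%). The median difference was 0.26 over the 19 and 0.04 over all. After quantile normalization of all rows 10 were higher and 0 lower, against 26.9% and 12.5% of all tested genes. Both comparisons use the same 3 vehicle arrays, so their values are given side by side and not counted as independent of each other. A difference in handling of the vehicle cultures would enter both comparisons, and this was not tested.

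**Figure D1:**
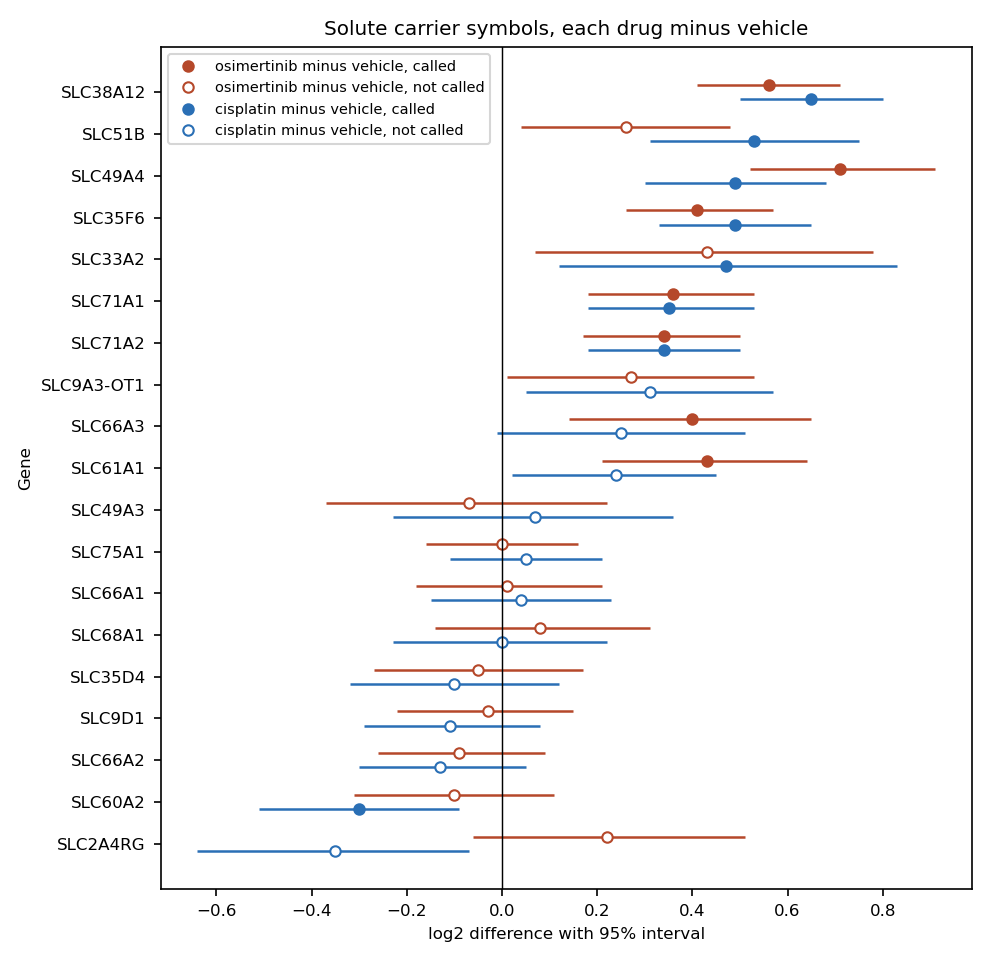
Log2 difference of each of the 19 genes from vehicle, with 95% intervals, for osimertinib and cisplatin (3 arrays a group). Both drugs have 7 genes called higher and cisplatin has 1 lower. The point furthest to the right is SLC49A4 at 0.71 for osimertinib and SLC38A12 at 0.65 for cisplatin.

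The major facilitator proteins numbered 9. Of these 4 were higher with osimertinib and 0 lower, where 16.9% of all tested genes were higher and 13.7% lower. With cisplatin 4 were higher and 1 lower, against 16.5% and 14.5% of all tested genes. SLC49A4, a lysosomal membrane protein that exports the vitamin B6 form pyridoxine with protons, was first found at the break of a translocation in a family with renal carcinoma. Its log2 level was 6.14, 6.23 and 6.09 with osimertinib, 5.87, 5.98 and 5.94 with cisplatin and 5.50, 5.47 and 5.35 with vehicle. No group overlapped another, with osimertinib the highest and vehicle the lowest. The difference from vehicle was 0.71 with osimertinib (SE 0.089, adjusted p = 5.42e-05, 1.64-fold) and 0.49 with cisplatin (SE 0.089, adjusted p = 0.0010, 1.41-fold).

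SLC71A2 and SLC71A1 are close relatives, orphan major facilitator proteins first described as hippocampus abundant transcripts. SLC71A2 was 8.74, 8.61 and 8.57 with osimertinib, 8.54, 8.78 and 8.60 with cisplatin and 8.33, 8.39 and 8.19 with vehicle. SLC71A1 was 8.28, 8.03 and 8.03 with osimertinib, 8.03, 8.21 and 8.08 with cisplatin and 7.67, 7.75 and 7.84 with vehicle. In both genes all 6 treated arrays lay above all vehicle arrays and the drug groups overlapped each other. SLC71A2 was higher by 0.34 with osimertinib (SE 0.076, adjusted p = 0.00403) and by 0.34 with cisplatin (SE 0.076, adjusted p = 0.00386). SLC71A1 was higher by 0.36 with osimertinib (SE 0.081, adjusted p = 0.00445) and by 0.35 with cisplatin (SE 0.081, adjusted p = 0.00484). The arrays' probes for such relatives may share sequence, which was not tested.

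SLC61A1 is a molybdate carrier. It was 6.36, 6.12 and 6.13 with osimertinib, 5.96, 6.06 and 6.02 with cisplatin and 5.78, 5.90 and 5.65 with vehicle, so every osimertinib array lay above every other. It was higher with osimertinib by 0.43 (SE 0.099, adjusted p = 0.00485). Its difference with cisplatin, 0.24 (95% interval 0.02 to 0.45), had an adjusted p of 0.0873, and after quantile normalization of all rows it was called (0.329, adjusted p = 0.00799). SLC33A2 carries the number of the acetyl-CoA transporter family. Its values were 5.11, 5.02 and 5.02 with osimertinib, 5.02, 5.06 and 5.21 with cisplatin and 4.66, 5.02 and 4.19 with vehicle, and vehicle replicate 2 lay among the treated arrays. Cisplatin was higher by 0.47 (SE 0.164, adjusted p = 0.0436), and without vehicle replicate 3 the difference was 0.255 with an adjusted p of 0.182. The call was lost on removal of any single array except vehicle replicate 2, with adjusted p-values of 0.0538 to 0.182. For osimertinib the difference was 0.43 (adjusted p = 0.066), and it was 0.210 without vehicle replicate 3 and 0.626, then called (adjusted p = 0.00687), without vehicle replicate 2.

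SLC60A2, described in rat kidney as a sodium-dependent glucose transporter, was the only gene of the 19 called lower. It was 6.77, 6.69 and 6.67 with osimertinib, 6.32, 6.69 and 6.49 with cisplatin and 6.82, 6.69 and 6.90 with vehicle. Only cisplatin replicates 1 and 3 lay clearly below the other arrays, and cisplatin replicate 2 was close to vehicle replicate 2. Both round to 6.69, and SLC60A2 still counts among the 10 genes whose cisplatin and vehicle arrays did not overlap. The cisplatin difference was -0.30 (SE 0.098, adjusted p = 0.0312, 1.23-fold lower) and the osimertinib one -0.10 (95% interval -0.31 to 0.11, adjusted p = 0.498). The cisplatin call was lost without cisplatin replicate 1 (-0.213, adjusted p = 0.0945), cisplatin replicate 3 (-0.296, 0.0806), vehicle replicate 1 (-0.294, 0.0814) or vehicle replicate 3 (-0.256, 0.119). The other three major facilitator proteins, SLC75A1, an organic anion and drug efflux protein, SLC68A1, an orphan, and SLC49A3, of the family of the haem exporter FLVCR, were called in no comparison. Their differences from vehicle lay between -0.07 and 0.08 with osimertinib and were at most 0.07 with cisplatin.

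PQ-loop proteins, which export amino acids from lysosomes in the best-known case, numbered 3. With osimertinib 1 was higher and 0 lower (16.9% and 13.7% of all tested genes), and with cisplatin 0 were called (16.5% of all tested genes higher and 14.5% lower), so with so few members these counts are near the background. SLC66A3 was 4.87, 4.94 and 4.77 with osimertinib, 4.73, 4.69 and 4.73 with cisplatin and 4.38, 4.30 and 4.71 with vehicle. All osimertinib arrays lay above the vehicle arrays, whereas vehicle replicate 3 overlapped the cisplatin arrays. The osimertinib difference was 0.40 (SE 0.119, adjusted p = 0.0216) and that with cisplatin 0.25 (95% interval -0.01 to 0.51, adjusted p = 0.13), which was called without vehicle replicate 3 (0.372, adjusted p = 0.0289) and after quantile normalization of all rows (0.323, 0.0451). The osimertinib call was lost without osimertinib replicate 1 (0.393, adjusted p = 0.0555) or 2 (0.353, 0.0768), or vehicle replicate 1 (0.354, 0.0744) or 2 (0.315, 0.0910). SLC66A1, the lysosomal exporter of lysine and arginine, differed from vehicle by 0.01 with osimertinib and 0.04 with cisplatin, and SLC66A2 by -0.09 with osimertinib and -0.13 with cisplatin, and none of these was called.

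**Figure D2:**
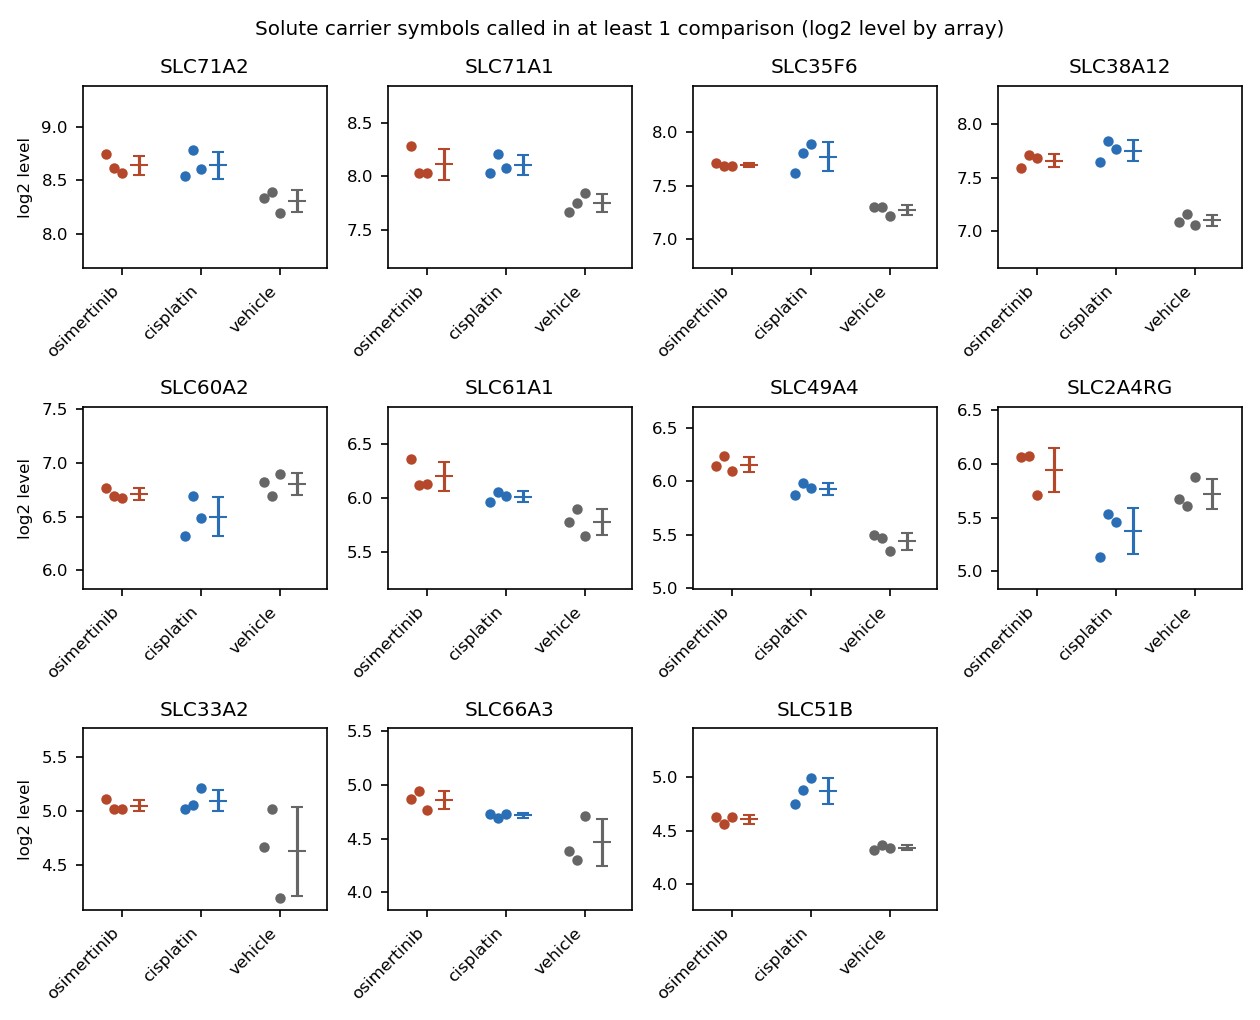
Log2 level of the genes called in at least 1 comparison, 1 point per array, with the group mean and SD, for osimertinib, cisplatin and vehicle (3 arrays each). The vehicle arrays lie below the treated arrays for SLC38A12, SLC35F6 and SLC49A4, and overlap them for SLC33A2.

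Among the 5 other carriers and carrier subunits, 2 were higher and 0 lower with osimertinib (16.9% and 13.7% of all tested genes), and 3 were higher and 0 lower with cisplatin (16.5% and 14.5%). SLC38A12 is grouped with the SLC38 amino acid carriers. It was 7.59, 7.71 and 7.68 with osimertinib, 7.65, 7.84 and 7.77 with cisplatin and 7.09, 7.16 and 7.06 with vehicle, and all 6 treated arrays lay above all vehicle arrays. It was higher by 0.56 with osimertinib (SE 0.071, adjusted p = 5.87e-05, 1.47-fold) and by 0.65 with cisplatin (SE 0.071, adjusted p = 1.81e-05, 1.57-fold), the largest difference from vehicle with cisplatin among the 19. SLC35F6, whose older name ANT2BP refers to binding of the adenine nucleotide translocase ANT2, was 7.71, 7.68 and 7.68 with osimertinib, 7.62, 7.80 and 7.89 with cisplatin and 7.30, 7.30 and 7.22 with vehicle. Its difference was 0.41 with osimertinib (SE 0.074, adjusted p = 0.0008) and 0.49 with cisplatin (SE 0.074, adjusted p = 0.0002).

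SLC51B is the beta subunit of the steroid and bile acid transporter, which needs the alpha subunit SLC51A to reach the membrane. SLC51B was 4.63, 4.56 and 4.63 with osimertinib, 4.75, 4.88 and 4.99 with cisplatin and 4.32, 4.37 and 4.34 with vehicle. The groups did not overlap, and cisplatin was the highest. Cisplatin was higher than vehicle by 0.53 (SE 0.103, adjusted p = 0.00154, 1.44-fold), whereas the osimertinib difference of 0.26 (95% interval 0.04 to 0.48) had an adjusted p of 0.0696. It was called without trend and robust fitting (adjusted p = 0.031) and after quantile normalization of all rows (0.348, 0.0147). SLC51A lay below the limit with a mean of 3.70, and when every named gene was tested its differences were -0.16 with osimertinib (adjusted p = 0.61) and -0.19 with cisplatin (adjusted p = 0.518). SLC9D1, a sodium-proton antiporter-like protein, and SLC35D4, of the nucleotide sugar carrier family, were not called, with differences of -0.03 (SLC9D1) and -0.05 (SLC35D4) with osimertinib and of -0.11 (SLC9D1) and -0.10 (SLC35D4) with cisplatin.

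**Figure D3:**
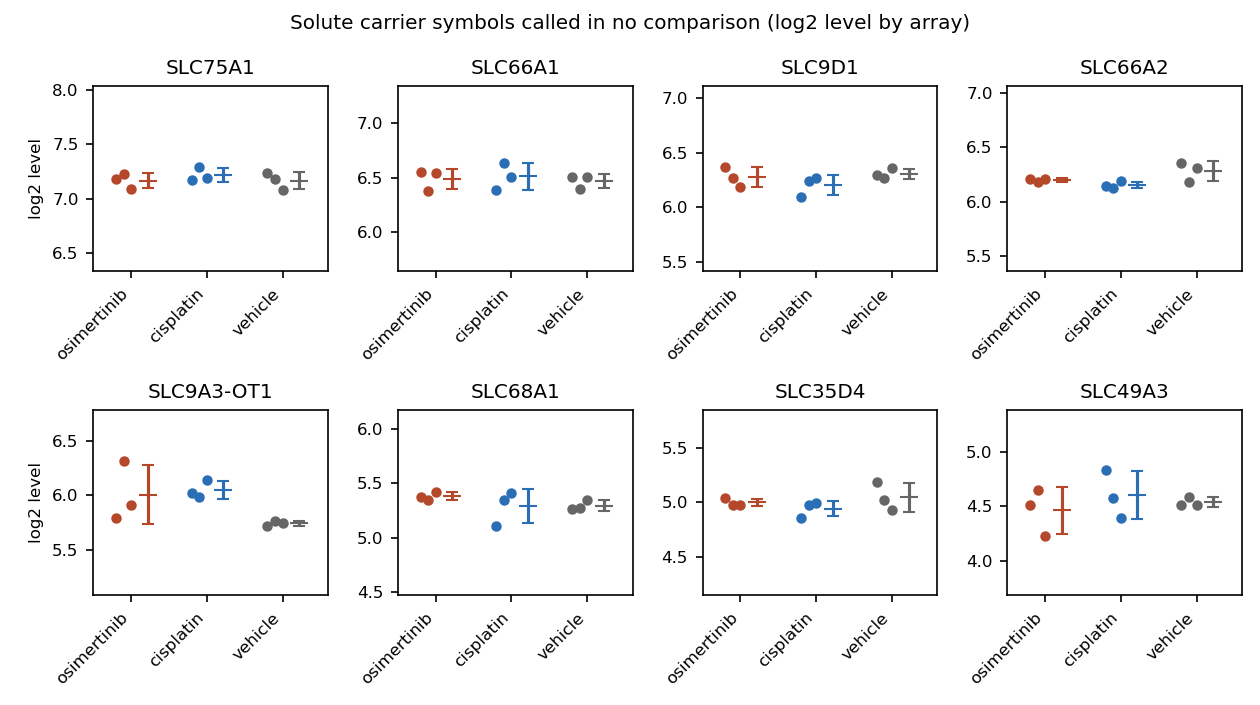
Log2 level of the genes called in no comparison, 1 point per array, with the group mean and SD, for osimertinib, cisplatin and vehicle (3 arrays each). The groups overlap in most of them, and SLC9A3-OT1 has its 3 vehicle arrays within 5.72 to 5.76.

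Neither gene outside the carriers was called against vehicle on the deposited scale with all 9 arrays. SLC2A4RG encodes a zinc-finger protein that binds the promoter of the glucose carrier GLUT4. It was 6.06, 6.07 and 5.71 with osimertinib, 5.13, 5.53 and 5.46 with cisplatin and 5.67, 5.61 and 5.88 with vehicle. The osimertinib and cisplatin arrays did not overlap, nor did those of cisplatin and vehicle. The difference was 0.22 for osimertinib minus vehicle (95% interval -0.06 to 0.51, adjusted p = 0.227) and -0.35 for cisplatin minus vehicle (-0.64 to -0.07, adjusted p = 0.0593). The cisplatin difference was called lower with median centring (-0.376, adjusted p = 0.0183), with quantile normalization within the tested genes (-0.374, 0.0216), and without osimertinib replicate 3 (0.0446) or cisplatin replicate 2 (-0.429, 0.0458). Without cisplatin replicate 1 it was -0.232. SLC9A3-OT1, a lncRNA, was 5.79, 6.31 and 5.91 with osimertinib, 6.02, 5.98 and 6.14 with cisplatin and 5.72, 5.76 and 5.74 with vehicle. Its differences of 0.27 with osimertinib (adjusted p = 0.115) and 0.31 with cisplatin (adjusted p = 0.0688) were not called. The osimertinib difference was 0.113 without osimertinib replicate 2 and 0.374, then called (adjusted p = 0.0401), without osimertinib replicate 1. The cisplatin difference was called with the limit at the upper quartile (adjusted p = 0.0449) and without osimertinib replicate 1 (0.0478) or 2 (0.0221). After quantile normalization of all rows both were called, at 0.344 with osimertinib (0.0424) and 0.402 with cisplatin (0.0213).

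Osimertinib against cisplatin, the direct comparison of the drugs, gave 1 gene higher (5.26%, against 0.766% of all tested genes) and 0 lower (against 0.981%), and 1 gene, SLC51B, had an unadjusted limma p under 0.05 in the lower direction. The arrays did not overlap for 5 genes (26.3%, against 14.3%). The gene called was SLC2A4RG, higher with osimertinib by 0.57 (SE 0.132, 1.49-fold, adjusted p = 0.0443). The call was lost in 11 of 16 alternatives, among them the removal of any single array except osimertinib replicate 3, with adjusted p-values of 0.058 to 0.17. SLC51B, -0.27 (95% interval -0.49 to -0.05, adjusted p = 0.294), SLC49A4, 0.22 (0.03 to 0.42, adjusted p = 0.323), SLC61A1, 0.19 (-0.02 to 0.40) and SLC66A3, 0.14 (-0.11 to 0.40) were the other non-overlapping genes, and none was called. For SLC38A12 the difference was -0.09 (-0.24 to 0.06) and for SLC35F6 -0.08 (-0.24 to 0.08).

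**Figure D4:**
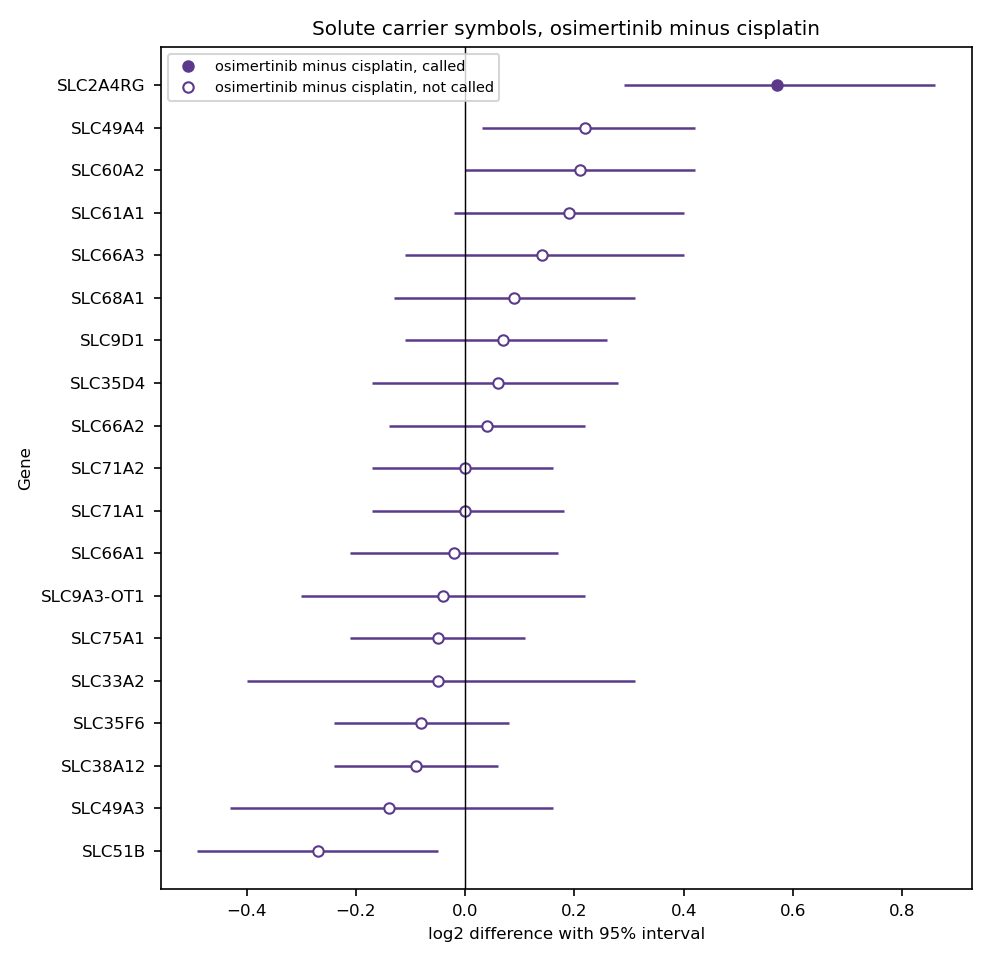
Log2 difference of osimertinib minus cisplatin for the 19 genes, with 95% intervals (3 arrays a group). SLC2A4RG at 0.57 lies furthest to the right and is the 1 gene called, and SLC51B at -0.27 lies furthest to the left.

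Other transport genes were followed from lists of transporters and their partners. BSG, a chaperone of monocarboxylate carriers, was higher with osimertinib by 0.24 (adjusted p = 0.00321), and with cisplatin it differed by 0.13 (adjusted p = 0.0818). EMB, its relative, was not called in any comparison. The 4 tested genes that keep an MFSD name are a list added after the table was seen. Of these 4, 1 was higher with cisplatin, where 16.5% of all tested genes were higher, and the others were not called. It was MFSD2A, a carrier of lysophosphatidylcholine, with a difference of 0.40 (adjusted p = 0.00138). With osimertinib MFSD2A differed from vehicle by 0.20 (adjusted p = 0.0681), and osimertinib minus cisplatin was -0.20 (adjusted p = 0.278), neither called. Of the ABC transporter symbols, 2 were named and 0 tested, and of 6 sodium pump genes 0 were named.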

How the data were processed

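The submitters measured total RNA from 9 cultures, 1 Affymetrix array each. The deposited values are log2 intensities per row as read from their range (0.65 to 13.17), while the log base, background correction and summarization that the authors used were not given in the sources here. Affymetrix Power Tools is named per the submitters' processing notes. Array medians over all rows were close, at 3.29 to 3.37. Normalization of the deposited columns against each other is inferred from this and was not tested. With such normalization, a shift of most transcripts would be hidden. The number of arrays limits the precision.

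Of 53617 rows, 16098 were named with 1 gene, 0 with several and 37519 were unnamed, giving 14884 genes, all matched by Entrez identifier to RefSeq GRCh38.p14. The brightest row of each of the 779 genes with several was taken. One limma 3.58.1 model (R 4.3.3) with 3 group means over 9 arrays, 6 residual degrees of freedom, trend and robust empirical Bayes was fitted to the 7442 genes at or above 4.28. Two-sided p-values were adjusted by Benjamini-Hochberg over these genes within a comparison and called under 0.05. Standard errors and 95% intervals are the moderated ones. The fit was tested on simulated data. The p-values set a difference of group means against the spread between these cultures, moderated over the tested genes.

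Members, lists and tests were chosen with earlier results of these data known. The 8 lists of solute carriers (102 genes) had 0 named genes, so the 19 were grouped by structural class once their names were seen. Named genes are the called ones, the 10 with the highest mean and those next to the limit. For calls against vehicle, the rule also required that treated and vehicle arrays not overlap. SLC33A2, called with overlapping arrays, and SLC35D4, SLC68A1 and SLC9A3-OT1 fall outside that rule. They are named so that all 19 are accounted for. Alternatives were quantile normalization, median centring, other level limits, no trend or robust fitting, row averaging, a replicate block and leaving out each array.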

Additional observations from a re-analysis of the deposited data

How the results depend on the processing

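Of 16 called results, 0 changed sign and 12 kept their call under every alternative run. The call was lost in 10 of 16 alternatives for SLC33A2 and 6 of 17 for SLC60A2 with cisplatin (no level limit, adjusted p = 0.0906 and 0.0607), 4 of 16 for SLC66A3 with osimertinib and 11 of 16 for SLC2A4RG between the drugs. Genes higher numbered 6 to 7 with osimertinib and 6 to 7 with cisplatin when single arrays were left out, genes lower with cisplatin 0 to 2 and genes higher in osimertinib over cisplatin 0 to 1. The 1 gene lower with cisplatin became 2 with median centring and with quantile normalization within the tested genes, and 0 with no level limit. The 1 gene higher with osimertinib over cisplatin became 0 with no level limit, with the limit at the upper quartile (12 genes left, SLC2A4RG not among them) and without trend and robust fitting. Quantile normalization was planned without naming the rows and run first within the tested genes, and the form over all rows was added after those results were seen. Over all rows, 66.9% of all calls were higher with cisplatin, against 53.2% in the deposited scale and 49.2% within the tested genes, and with osimertinib 68.3%, 55.1% and 50.4%. The cause was not tested.

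No pairing by replicate number was visible: same-numbered arrays correlated at -0.227 to 0.126, and 2 of 9 arrays correlated best with their own number. The labels do not say whether the cultures were paired, and these correlations cannot settle it. With a replicate block 7 genes were higher and 0 lower with osimertinib, 7 higher and 0 lower with cisplatin, and 0 higher and 0 lower between the drugs (SLC60A2 adjusted p = 0.0513, SLC2A4RG 0.0758).

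Of 57 single differences, 14 changed sign somewhere, all uncalled. Over all rows quantile normalization gave 0.077 for SLC68A1 with cisplatin, and with osimertinib 0.042 for SLC35D4, 0.023 for SLC49A3, 0.041 for SLC75A1 and 0.032 for SLC9D1. SLC66A1 with osimertinib was -0.011 with quantile normalization within the tested genes and -0.017 with centring, and SLC71A1 between the drugs was -0.008 over all rows, -0.019 within the tested genes and -0.004 with centring. Without single arrays the ranges were, with osimertinib, -0.105 to 0.023 for SLC35D4, -0.168 to 0.046 for SLC49A3, -0.022 to 0.068 for SLC66A1, -0.047 to 0.035 for SLC75A1 and -0.083 to 0.010 for SLC9D1. With cisplatin they were -0.049 to 0.173 for SLC49A3, -0.024 to 0.10 for SLC66A1 and -0.065 to 0.088 for SLC68A1. Between the drugs they were -0.082 to 0.011 for SLC33A2, -0.085 to 0.039 for SLC66A1, -0.004 to 0.150 for SLC68A1, -0.078 to 0.059 for SLC71A1, -0.053 to 0.069 for SLC71A2 and -0.197 to 0.064 for SLC9A3-OT1.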
